A study of Mus musculus with 6 samples.

Results

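Transcripts of the E2F and retinoblastoma family were followed in cultured mouse embryonic fibroblasts (MEFs), a standard model of dividing connective tissue cells, after a small interfering RNA (siRNA) had been used to lower Hk2. The 10 members were chosen by gene name: the activator genes E2f1, E2f2 and E2f3, the repressor genes E2f4, E2f7 and E2f8, the pocket protein genes Rb1, Rbl1 and Rbl2, and Mybl2, a partner of the family. All 10 have a row among the 22355 of the deposited table. The siHk2 group (3 libraries, numbered 1 to 3) received the siRNA against Hk2, which encodes the glucose-phosphorylating enzyme hexokinase 2, and the siControl group (3 libraries, numbered 4 to 6) received a negative control siRNA. The sources used here do not give strain, passage, time after transfection or the number of cultures, so p-values measure the spread between these libraries, which may be technical. Levels are in TPM, a unit corrected for transcript length and scaled to the same total in each library, and the depth of each library is unknown.

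E2F proteins bind DNA at the promoters of genes for S phase and cell division, mostly as pairs with a DP protein. The pocket proteins pRB, p107 (Rbl1) and p130 (Rbl2) hold E2Fs in check until cyclin-dependent kinases phosphorylate them in late G1. E2F4 with p107 or p130 joins the MuvB proteins in the repressive DREAM complex of resting cells; in dividing cells B-Myb (Mybl2) binds MuvB instead and takes part in switching on mitotic genes. E2F7 and E2F8 are atypical repressors that need no DP partner and act late in S phase, and several genes of the family are themselves E2F targets.

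In siHk2 cells 5 of the 10 members fell: E2f1, Mybl2, E2f8, E2f7 and Rbl1. No member passed the threshold in the higher direction in limma, where 1 member (Rb1) lay above 0 at an unadjusted p under 0.05. The largest fall was that of E2f1, by 33.01% of the control mean, and the smallest that of Rbl1, by 16.3%. Over all 13341 genes tested (mean of at least 1 TPM, a filter that all 10 members passed), 7.42% were called lower and 6.15% higher (13.6% in either direction) at an adjusted p under 0.05 in limma. At an unadjusted p under 0.05 in limma, 2055 of these 13341 genes were lower and 2038 higher, 30.7% in either direction. For 5 members every siHk2 library lay below every siControl library, and for 1, Rb1, every one lay above; over all tested genes this held for 18.1% (lower) and 17.6% (higher), 35.7% in all. The median log2 fold change of the members was -0.19, against 0.01 over all tested genes. In bulk RNA, fewer cycling cells and less of each transcript per cell cannot be told apart. Hk2 itself stood at 21.9 ± 0.469 TPM in siHk2 cells and 59.5 ± 2.78 TPM in siControl cells (SD, n = 3 each).

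**Figure D1:**
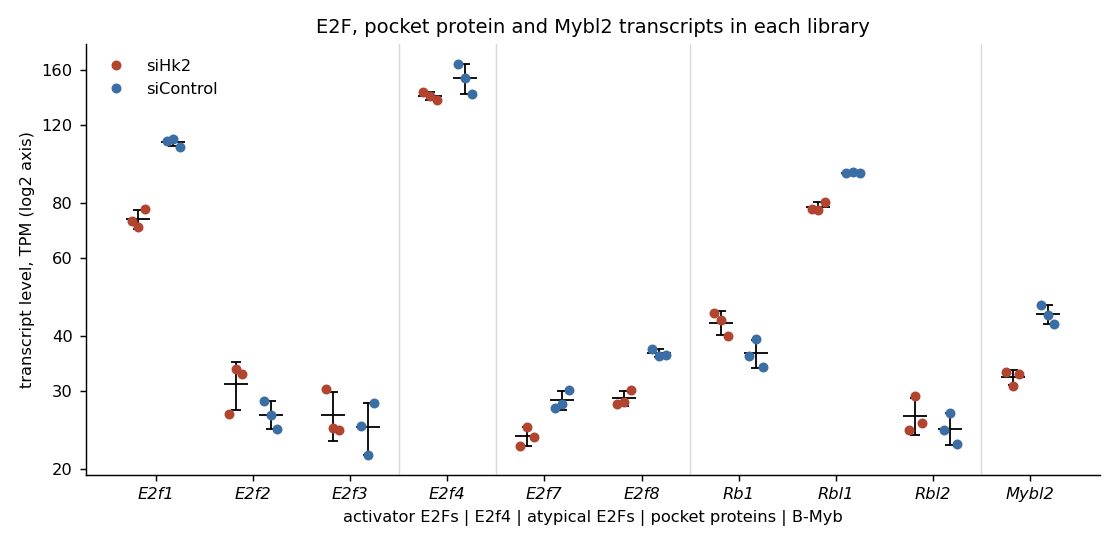
Transcript level of each member (TPM, log2 axis) in every library, with siHk2 libraries in red to the left of siControl libraries in blue; bars give the mean and the SD over 3 libraries. E2f1, E2f7, E2f8, Rbl1 and Mybl2 separate downwards in siHk2, Rb1 upwards, and the groups overlap for E2f2, E2f3, E2f4 and Rbl2.

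Among the activators, E2f1, the family member best known for driving entry into S phase, had 72.9, 70.4 and 77.5 TPM in the siHk2 libraries, against 110.7, 111.6 and 107.2 TPM in the siControl libraries. The highest siHk2 value thus lay well below the lowest control value. The log2 fold change was -0.57 (SE 0.0498, 95% confidence interval -0.69 to -0.46, Benjamini-Hochberg adjusted p = 0.00167, limma). E2f1 (ENSMUSG00000027490) ranked 43 by p among all tested genes, and its call held in all 14 alternative settings.

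E2f2 and E2f3, the other activators, did not follow E2f1. E2f2 had 26.6, 33.7 and 32.8 TPM in siHk2 libraries, against 28.4, 26.4 and 24.6 TPM in siControl libraries. Libraries 2 and 3 of siHk2 were above all controls, while library 1 lay among them, so the groups overlapped (log2 fold change 0.22, 95% confidence interval -0.02 to 0.45, adjusted p = 0.199 in limma). E2f3 had 30.3, 24.7 and 24.4 TPM in siHk2 libraries, against 25.0, 21.4 and 28.1 TPM in siControl libraries. Its interval, from -0.19 to 0.37 on the log2 scale, spans both directions (adjusted p = 0.665 in limma), and the table does not separate the products of its alternative start sites. The intervals of E2f1 and of both other activators do not overlap, which is a description and not a test of the difference between the genes.

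Because TPM is corrected for length, levels of the 3 activators can be added. Their sum was 131.0 ± 3.19 TPM in siHk2 libraries and 161.2 ± 2.53 TPM in siControl libraries (SD, n = 3 each). E2f1 made up 56.2%, 54.7% and 57.5% of that sum in siHk2 libraries, against 67.4%, 70.0% and 67.1% in siControl libraries. E2f2 made up 20.5%, 26.2% and 24.3% in siHk2 libraries, against 17.3%, 16.6% and 15.4% in siControl libraries. E2f1 remained the most abundant activator in all 6 libraries, and its ratio to E2f2 was 2.40 ± 0.327 in siHk2 libraries and 4.16 ± 0.242 in siControl libraries (SD, n = 3 each). Shares of 1 sum move against each other, so the higher share of E2f2 contains the fall of E2f1.

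E2f4, the E2F of the DREAM complex, was the most abundant member in both groups. It had 142.3, 139.8 and 136.6 TPM in siHk2 libraries, against 165.5, 153.4 and 141.5 TPM in siControl libraries. The siControl libraries spread more widely here, and the lowest of them, library 6, lay below the highest siHk2 library. The log2 fold change was -0.13 (95% confidence interval -0.28 to 0.01, adjusted p = 0.190 in limma). It passed without siControl library 6 (-0.19, adjusted p = 0.0428) and with library weights (-0.21, adjusted p = 0.0187), while without siControl library 4 the log2 fold change was -0.08 (adjusted p = 0.448). The ratio of E2f1 to E2f4 was 0.528 ± 0.0348 in siHk2 libraries and 0.718 ± 0.0454 in siControl libraries (SD, n = 3 each), with no overlap.

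The atypical repressors both fell. E2f8 had 28.1, 28.4 and 30.1 TPM in siHk2 libraries, against 37.4, 36.0 and 36.2 TPM in siControl libraries. All siHk2 values were below all controls (log2 fold change -0.33, SE 0.0540, adjusted p = 0.0106 in limma). E2f7 had 22.5, 24.9 and 23.6 TPM in siHk2 libraries, against 27.4, 28.1 and 30.2 TPM in siControl libraries. Here too the groups did not overlap (log2 fold change -0.26, SE 0.0655, adjusted p = 0.0398 in limma), but this call was lost in 8 of 14 settings, among them the omission of any single library, where the adjusted p ran from 0.0630 to 0.125. E2f8 kept its call in every setting, the weakest being an adjusted p of 0.0498 without siControl library 4. Summed, the pair came to 52.5 ± 1.69 TPM in siHk2 libraries and 65.1 ± 1.14 TPM in siControl libraries (SD, n = 3 each). Set against the activator sum, this was 0.401 ± 0.0121 in siHk2 libraries and 0.404 ± 0.00996 in siControl libraries, overlapping ranges.

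The pocket protein genes differed among themselves. Rbl1, which encodes p107 and is itself a known E2F target, had 77.5, 77.2 and 80.5 TPM in siHk2 libraries, against 93.4, 93.9 and 93.6 TPM in siControl libraries. The control libraries agree closely and all siHk2 libraries lie below them (log2 fold change -0.25, SE 0.0408, adjusted p = 0.0101 in limma). Rb1, which encodes pRB, had 45.1, 43.3 and 39.9 TPM in siHk2 libraries, against 36.0, 39.4 and 34.0 TPM in siControl libraries. The groups did not overlap, with siHk2 library 3 and siControl library 5 close together. Its log2 fold change of 0.23 (95% confidence interval 0.05 to 0.40) did not pass over all genes (adjusted p = 0.0825 in limma), although it did without siControl library 5 (adjusted p = 0.0488) and with library weights (adjusted p = 0.0407). Rbl2, which encodes p130, the pocket protein of resting cells, had 24.4, 29.2 and 25.4 TPM in siHk2 libraries, against 24.5, 26.7 and 22.7 TPM in siControl libraries. Its groups overlapped (log2 fold change 0.09, 95% confidence interval -0.12 to 0.30, adjusted p = 0.540 in limma).

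The summed pocket protein transcripts came to 147.5 ± 2.04 TPM in siHk2 libraries and 154.8 ± 4.93 TPM in siControl libraries (SD, n = 3 each). Rb1 made up 30.7%, 28.9% and 27.4% of them in siHk2 libraries, against 23.4%, 24.6% and 22.6% in siControl libraries. Rbl1 was the largest part in all 6 libraries, with 52.7%, 51.6% and 55.2% in siHk2 libraries, against 60.7%, 58.7% and 62.3% in siControl libraries. The ratio of E2f1 to Rb1 transcripts was 1.73 ± 0.186 in siHk2 libraries and 3.02 ± 0.168 in siControl libraries (SD, n = 3 each), with no overlap.

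**Figure D2:**
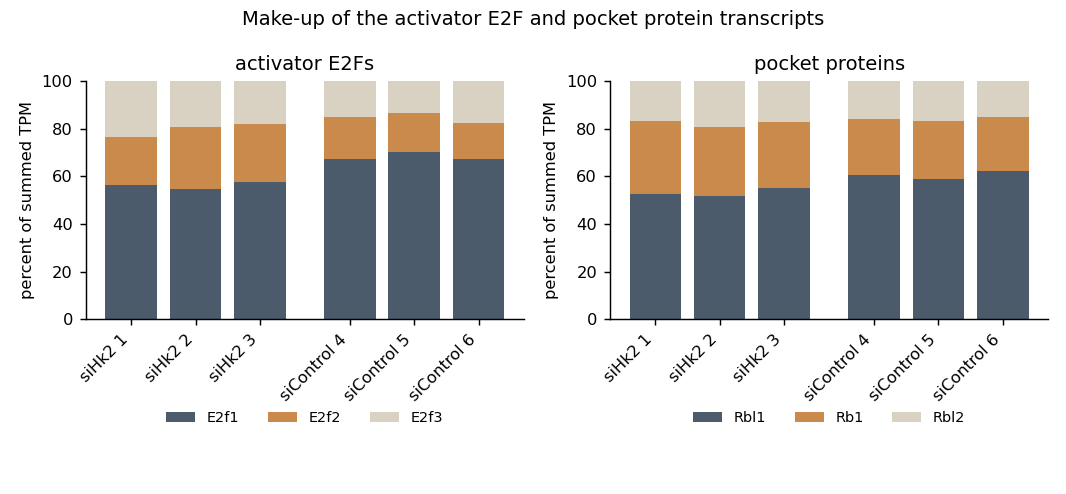
Stacked bars give, for each library, the percent of the summed TPM of the 3 activator E2Fs (left) and of the 3 pocket proteins (right), with siHk2 libraries left of siControl libraries. E2f1 takes 54.7% to 57.5% of the activator sum in siHk2 and 67.1% to 70.0% in siControl, and Rb1 takes 27.4% to 30.7% of the pocket sum in siHk2 and 22.6% to 24.6% in siControl.

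Mybl2, which encodes B-Myb, had 33.1, 30.8 and 32.7 TPM in siHk2 libraries, against 47.1, 44.7 and 42.4 TPM in siControl libraries. Every siHk2 library was below every control library. The log2 fold change was -0.46 (95% confidence interval -0.60 to -0.32, SE 0.0594, adjusted p = 0.00517 in limma), and the call held in all 14 settings. Of the 50-base windows of its longest annotated transcript, 23.8% also occur in Gm3320 or in AC151978.1. Neither of these genes has a row in the deposited table. The share does not measure an error of the Mybl2 level, and the part of these windows in that level was not tested. The ratio of Mybl2 to E2f1 was 0.438 ± 0.0163 in siHk2 libraries and 0.407 ± 0.0159 in siControl libraries (SD, n = 3 each), overlapping ranges. For E2f1 the share of such windows was 2.03% and for the other 8 members 0%.

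**Figure D3:**
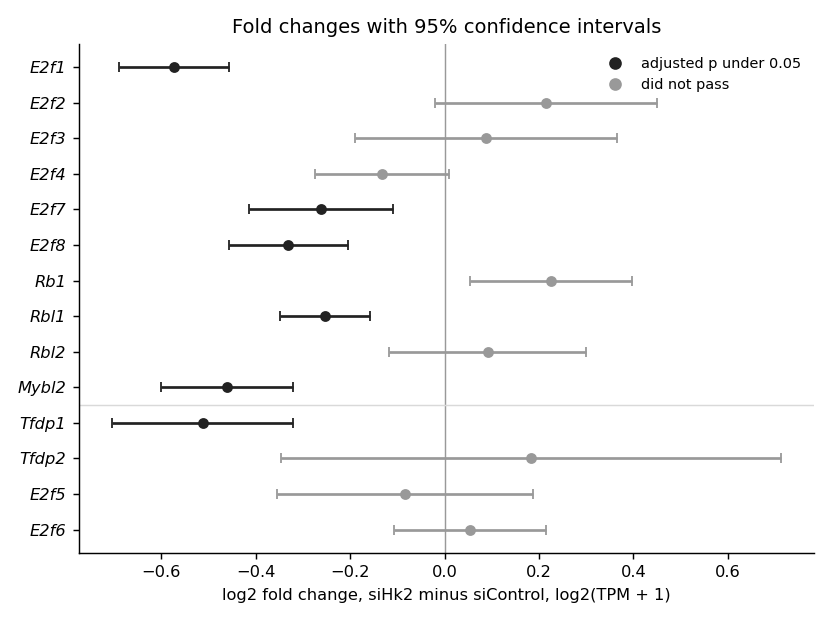
Log2 fold change, siHk2 minus siControl, on the log2(TPM + 1) scale for the 10 members (above the line) and for the DP partners and the other E2Fs (below it); bars are 95% confidence intervals from limma, and black marks genes with an adjusted p under 0.05. E2f1, Tfdp1 and Mybl2 lie farthest to the left, at -0.57, -0.51 and -0.46.

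E2f4 held the first place in both groups, and the order of the other members differed between them. From high to low it was E2f4, Rbl1, E2f1, Rb1, Mybl2, E2f2, E2f8, E2f3, Rbl2 and E2f7 in siHk2 cells, and E2f4, E2f1, Rbl1, Mybl2, E2f8, Rb1, E2f7, E2f2, E2f3 and Rbl2 in siControl cells. Neighbours from Mybl2 down in siHk2 cells, and from E2f7 down in siControl cells, overlap in their ranges, as do Rbl1 and E2f1 in siHk2 cells and E2f8 and Rb1 in siControl cells.

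Promoter windows of the members were read for E2F-type letters. Windows of 300 bases, most of each before an annotated start site, were found for 8 members in RefSeq on build GRCm38.p6, and E2f4 and Rb1 had none. They were searched on both strands for the core GGCGGGA, for the variant TTCGCGC, and for the variant TTGGCGC, all chosen after the windows had been read. At least 1 core lies in a window of Mybl2, Rbl1, E2f7, E2f8, E2f2 and E2f3, that is in 6 of 8 members, counted over both windows of E2f2 and of E2f3. Per window, 25.2% of the 12520 windows of tested genes and 14.3% of all 32851 windows hold a core; since the cores were picked from the members' windows and the members are counted per gene, these shares are context and no comparison. Some windows of the members are rich in G and C, and the shares are not matched for that. The start site of the E2f1 window lies 466 bases downstream of the most upstream start of a coding transcript in GENCODE M21, so the letters before that upstream start were not analysed here; neither it nor the Rbl2 window holds a core. Fallen members (Mybl2, Rbl1, E2f8) are shown beside E2f2, which did not pass, because all 4 windows hold 1 core each, in capitals, on the strand of the gene; a match is no evidence of a bound site.
Mybl2, chr2:163054385-163054684, plus strand: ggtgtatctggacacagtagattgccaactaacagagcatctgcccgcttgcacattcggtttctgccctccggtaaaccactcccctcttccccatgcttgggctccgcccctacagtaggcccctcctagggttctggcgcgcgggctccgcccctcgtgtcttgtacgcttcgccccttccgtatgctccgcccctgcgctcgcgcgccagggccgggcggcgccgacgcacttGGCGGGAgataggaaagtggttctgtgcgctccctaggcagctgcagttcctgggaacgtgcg
Rbl1, chr2:157204485-157204784, minus strand: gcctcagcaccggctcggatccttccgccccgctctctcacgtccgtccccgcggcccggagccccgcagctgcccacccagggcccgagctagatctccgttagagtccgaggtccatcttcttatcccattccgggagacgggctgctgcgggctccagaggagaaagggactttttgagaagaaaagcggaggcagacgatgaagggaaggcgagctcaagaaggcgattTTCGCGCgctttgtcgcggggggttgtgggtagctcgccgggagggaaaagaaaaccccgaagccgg
E2f8, chr7:48881547-48881846, minus strand: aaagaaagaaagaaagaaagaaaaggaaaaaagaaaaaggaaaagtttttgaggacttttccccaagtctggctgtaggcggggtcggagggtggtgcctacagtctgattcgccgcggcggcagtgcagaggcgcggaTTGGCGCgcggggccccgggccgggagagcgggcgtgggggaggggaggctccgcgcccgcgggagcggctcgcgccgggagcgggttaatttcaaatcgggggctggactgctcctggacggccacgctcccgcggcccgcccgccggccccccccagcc
E2f2, chr4:136172024-136172323, plus strand: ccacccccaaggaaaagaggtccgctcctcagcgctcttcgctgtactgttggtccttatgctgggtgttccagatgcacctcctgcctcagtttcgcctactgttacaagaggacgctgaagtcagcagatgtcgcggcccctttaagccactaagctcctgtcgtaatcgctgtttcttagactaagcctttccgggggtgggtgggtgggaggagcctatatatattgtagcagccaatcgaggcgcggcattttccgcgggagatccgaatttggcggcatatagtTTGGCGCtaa

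In the Mybl2 window the core is GGCGGGA, in the Rbl1 window TTCGCGC, and in the E2f8 and E2f2 windows TTGGCGC. The CCAAT box, bound by NF-Y, occurs in a window of E2f2, E2f3, E2f7 and E2f8, and in 38.4% of the windows of tested genes. The only match in the E2f8 window, on the opposite strand (ATTGG), shares most of its letters with the core in capitals, so the 2 are not separate. The letters TTTGAA, the core of the cell cycle element read by MuvB, occur in a window of E2f2, E2f3, E2f8 and Rbl2, and in 12.6% of the windows of tested genes; the E2f2 match is not in the window printed above but in a second one, 8388 bases downstream of the most upstream coding start. Mybl2 and Rbl1 hold neither.

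None of the 10 members holds GGAGACT in its annotated 3' untranslated region, a heptamer picked by an earlier scan of these same fold changes. Of 11463 tested genes with such a region 11.9% hold it. Genes with it had a median of -0.04 (13.8% called lower) and genes without it a median of 0.01 (7.51% called lower) on the log2 scale. Because the heptamer was picked from these fold changes, that gap is no support for a role of it. The lengths of the regions were not matched either.

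By position (build GRCm39 in the deposited table), 3 of the 5 members that fell lie on chromosome 2: E2f1 on the minus strand from 154401327 to 154411812, Rbl1 on the minus strand from 156987813 to 157046454 and Mybl2 on the plus strand from 162896607 to 162926608. The gaps between them are 2.58 and 5.85 Mb. Those 3 genes are all the members on that chromosome, which holds 1073 of the 13341 tested genes. Of these 1073 genes 8.29% were called lower, near the 7.42% of all tested genes. E2f8 lies on the minus strand of chromosome 7 (48516177 to 48531344) and E2f7 on the plus strand of chromosome 10 (110581300 to 110623245). Rb1, on the minus strand of chromosome 14 (73421113 to 73563262), is overlapped by Rcbtb2 and Lpar6 on the opposite strand, and no source used here says if counting used strand. Rcbtb2 stood at 4.47, 4.06 and 3.5 TPM in siHk2 libraries, against 2.39, 2.93 and 2.83 TPM in siControl libraries. Lpar6 stood at 3.83, 3.53 and 4.2 TPM in siHk2 libraries, against 3.86, 2.48 and 2.36 TPM in siControl libraries. The part of these genes in the Rb1 level was not tested. Aktip overlaps Rbl2 on the opposite strand over 12061 bases and stood at 10.71, 11.33 and 12.18 TPM in siHk2 libraries, against 12.99, 12.96 and 13.35 TPM in siControl libraries; its part in the Rbl2 level was not tested either. E2f2 lies on the plus strand of chromosome 4 (135899705 to 135923368), E2f3 on the minus strand of chromosome 13 (30090558 to 30170046), and E2f4 (106024295 to 106032002) and Rbl2 (91796685 to 91850472) on the plus strand of chromosome 8.

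Of the DNA-binding partners, Tfdp1, which encodes the main DP protein, fell together with E2f1. It had 162.9, 146.5 and 150.8 TPM in siHk2 libraries, against 223.8, 194.5 and 241.0 TPM in siControl libraries, with no overlap (log2 fold change -0.51, SE 0.0820, adjusted p = 0.0101 in limma). The call was lost without siHk2 library 3 (adjusted p = 0.0515), and 27.1% of the windows of its transcript occur in other genes. Tfdp2 (16.8 ± 2.93 TPM in siHk2 and 15.1 ± 4.64 TPM in siControl), E2f5 (34.9 ± 5.58 TPM in siHk2 and 36.8 ± 2.34 TPM in siControl) and E2f6 (32.1 ± 1.22 TPM in siHk2 and 30.9 ± 2.34 TPM in siControl; SD, n = 3 each) did not pass, with adjusted p-values in limma from 0.636 to 0.678.

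Around B-Myb, the MuvB proteins Lin9, Lin37, Lin52, Lin54 and Rbbp4 form the shared core of DREAM and of the B-Myb complex. Lin54, its DNA-binding subunit, fell to 30.7 ± 0.670 TPM in siHk2, against 36.9 ± 2.53 TPM in siControl (SD, n = 3 each, adjusted p = 0.0362 in limma), a call lost in 7 of 14 settings. Rbbp4 was at 92.8 ± 0.394 TPM in siHk2 and 101.6 ± 1.94 TPM in siControl (adjusted p = 0.0726 in limma). Lin9, Lin37 and Lin52 did not pass, nor did Dyrk1a, the kinase that promotes DREAM assembly, or Mybl1, the A-Myb gene, with adjusted p-values from 0.333 to 0.697 in limma. Foxm1, which joins B-Myb at mitotic promoters, fell to 79.1 ± 1.33 TPM in siHk2, against 121.3 ± 4.97 TPM in siControl (SD, n = 3 each, log2 fold change -0.61, adjusted p = 0.000906 in limma). In all, 2 of 8 tested genes of this list fell (3 lower and 0 higher at an unadjusted p under 0.05), with a median of -0.10; Myb was not analysed here.

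Upstream of the pocket proteins, 5 of 13 tested cyclin, kinase and inhibitor genes fell and 1 rose (7 lower and 3 higher at an unadjusted p under 0.05). Over all tested genes, 30.7% passed that unadjusted threshold in either direction. Ccne1, the cyclin E1 gene, fell to 35.3 ± 2.15 TPM in siHk2, against 52.4 ± 1.42 TPM in siControl (SD, n = 3 each, log2 fold change -0.56, adjusted p = 0.00288 in limma). Ccnd2 and Ccna2 were 71.2 ± 1.42 and 131.4 ± 4.67 TPM in siHk2, against 95.9 ± 3.69 and 166.4 ± 6.38 TPM in siControl. Cdkn2c, which encodes the CDK4/6 inhibitor p18, fell to 128.0 ± 2.61 TPM in siHk2, against 183.7 ± 14.4 TPM in siControl (adjusted p = 0.00376 in limma). The other fall was that of Cdk4 (log2 fold change -0.20, adjusted p = 0.0199 in limma), a call lost without a trend (0.0637), without siControl library 4 (0.0635) and without siHk2 library 1, 2 or 3 (0.0722, 0.0835 and 0.0515), and the rise that of Cdkn1b, the p27 gene, at 77.3 ± 1.39 TPM in siHk2 and 64.5 ± 2.51 TPM in siControl (adjusted p = 0.0148 in limma, lost without siControl library 4 and without siHk2 library 2 or 3); these last 2 genes were named after their values were seen. Ccna1, Cdkn1c, Cdkn2a and Cdkn2b lay under the filter, Cdkn2a (p16 and p19Arf) at 0 to 0.18 TPM in siHk2 and 0.14 to 0.42 TPM in siControl.

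Genes known as E2F targets of G1 and S fell almost throughout: 29 of 35 tested genes (82.9%) in limma and none higher, also at an unadjusted p under 0.05, with a median log2 fold change of -0.44. Slbp, the histone stem-loop binding protein gene, was at 22.6 ± 0.433 TPM in siHk2 and 46.4 ± 1.09 TPM in siControl; it holds the largest fold change of that list, at -1.003. Mcm3 and Cdt1 of origin licensing fell by 0.60 and 0.66 on the log2 scale, and Uhrf1, the partner of maintenance methylation, by 0.59. Of 29 tested targets of MuvB and B-Myb in G2 and M, 25 fell (86.2%) in limma and none was higher, also at an unadjusted p under 0.05, with a median of -0.42; Racgap1, Aurkb, Aurka and Cdc20 had the smallest p-values, with falls of 0.42, 0.52, 0.59 and 0.52 on the log2 scale. Without siHk2 library 3 the counts were 19 and 16. At an unadjusted p under 0.05 in limma, 31 and 28 genes were then lower, against 32 and 28 with all libraries. Cell cycle genes were already known to be lower in these data when the lists were drawn up, so their counts are no separate support. Of the windows of the longest transcripts of Uhrf1, Cdc20 and Racgap1, 18.9%, 11.4% and 7.89% occur in other genes.

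**Figure D4:**
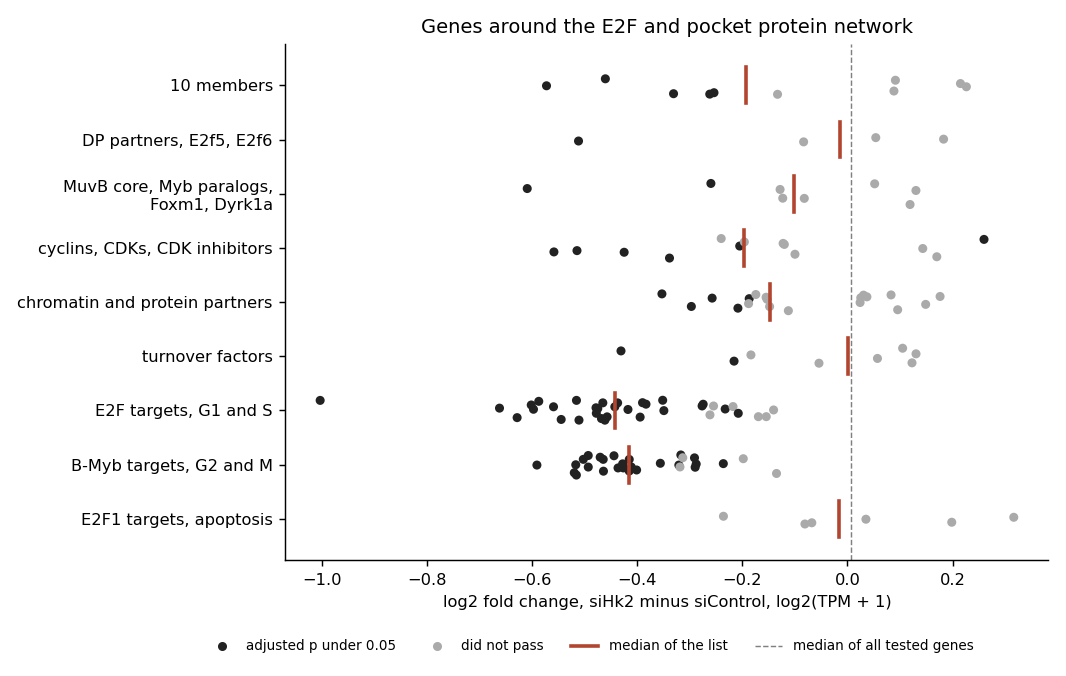
Each dot is 1 tested gene, placed by its log2 fold change, siHk2 minus siControl (log2(TPM + 1) scale), and grouped by list; black dots have an adjusted p under 0.05, red bars are list medians and the dashed line is the median of all tested genes (0.01). The target lists of G1 and S (median -0.44) and of G2 and M (median -0.42) lie wholly below 0, while the apoptosis targets (median -0.02) straddle it.

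The apoptosis genes attributed to E2F1 showed no call. None of 6 tested genes passed in limma, with 2 above and 1 below 0 at an unadjusted p under 0.05. That unadjusted threshold was passed by 30.7% of all tested genes, so these counts are not read as a change. Bcl2l11, the BIM gene, was at 9.54 ± 0.706 TPM in siHk2 and 7.497 ± 1.13 TPM in siControl (SD, n = 3 each, adjusted p = 0.119 in limma). Apaf1, of the apoptosome, was at 18.4 ± 0.910 TPM in siHk2 and 15.96 ± 1.40 TPM in siControl, and Map3k5 at 26.9 ± 1.32 TPM in siHk2 and 31.9 ± 2.81 TPM in siControl. Trp73, Pmaip1 and Hrk lay under the filter, at no more than 0.24 TPM in any library.

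Of 19 tested chromatin and protein partners, 5 fell (9 lower and 1 higher at an unadjusted p under 0.05), with a median of -0.15. Kat2a, an acetyltransferase recruited by E2Fs, fell to 95.7 ± 0.825 TPM in siHk2, against 117.9 ± 7.92 TPM in siControl, and Suv39h1, a histone methyltransferase that binds pRB, to 24.6 ± 2.58 TPM in siHk2, against 31.6 ± 0.632 TPM in siControl (SD, n = 3 each, adjusted p = 0.0156 and 0.0301 in limma). Hdac1, a deacetylase that pocket proteins recruit, and Hcfc1, a cofactor that binds E2Fs, fell by 0.21 and 0.26 on the log2 scale. The remaining fall was that of Rbbp7 (named after its values were seen, adjusted p = 0.0364 in limma). The Rbbp7 call was lost without a trend (adjusted p = 0.0912 in limma) and with no filter on low values (0.0642). It was also lost without siControl library 4 or 5 or any siHk2 library (0.076 to 0.122). The calls of Kat2a, Suv39h1, Hdac1 and Hcfc1 were lost in 3, 6, 5 and 7 of 14 settings. Windows that occur in other genes made up 58.7% for Hdac1 and 9.38% for Rbbp7. Without siHk2 library 1, and likewise without siHk2 library 2, 0 genes of the list were called in limma, with 8 lower at an unadjusted p under 0.05. The count called was 1 without a trend and without siHk2 library 3 or siControl library 4. It was 2 with no filter on low values and without siControl library 5. Of 8 tested turnover factors, Ccnf, the cyclin F gene, whose product marks activator E2Fs for degradation, fell to 22.1 ± 0.402 TPM in siHk2, against 30.2 ± 1.75 TPM in siControl (adjusted p = 0.00726 in limma), and Fzr1, an adaptor of the APC/C ligase, fell by 0.22 on the log2 scale, a call lost in 8 of 14 settings. Cks1b and Skp1 did not pass (adjusted p = 0.0594 and 0.169 in limma).

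The fibroblast label was checked against 11 markers found in the table, which summed to 3613 to 3879 TPM in siHk2 libraries, against 3850 to 3927 TPM in siControl libraries. Col1a2, Vim and Fn1 were high in all libraries (at least 373.6 TPM), while Thy1, Dcn and Lum did not exceed 0.54 TPM in any, and 1 of 8 tested markers, Vim, was called lower. Among markers of other cell types, 3 of 4 tested adipocyte markers were called higher (Pparg, Lpl and Cidec), and the list summed to 1361 to 1419 TPM in siHk2 libraries, against 872.5 to 899.1 TPM in siControl libraries; the defining marker Adipoq did not exceed 0.35 TPM. S100b (135.2 to 147.0 TPM in siHk2, 88.3 to 93.1 TPM in siControl) and Krt7 (4.54 to 6.18 TPM in siHk2, 1.12 to 2.13 TPM in siControl) were also higher, with Sox10, Epcam and Cdh1 at no more than 0.09 TPM. Krt8 lay under the filter, at 0.93 to 1.97 TPM in siHk2 and 0 to 0.33 TPM in siControl. The groups overlapped for Krt18 and Krt19. Leukocyte and muscle markers did not pass in limma, and no endothelial or hepatocyte marker reached the filter. The part of these markers in the member results was not tested.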

How the data were processed

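RNA of 6 MEF libraries was enriched for poly(A) tails, fragmented, copied with random hexamers and sequenced on a BGI platform, per the labels' protocols. The authors deposited TPM per gene, and per the submitters' processing notes the build was GRCm39; the sources used here give no aligner, counting tool or annotation release, and the labels describe strand marking as an option. TPM keeps no depth, so no counting interval could be given. Column names of siHk2 equal sample titles; those of siControl are numbered otherwise and were taken as replicates of their group.

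The 13341 genes that averaged 1 TPM or more were fitted in limma 3.58.1 (R 4.3.3) on log2(TPM + 1), with a mean-variance trend, two-sided, Benjamini-Hochberg adjusted over all tested genes, threshold 0.05; the pseudocount of 1 understates fold changes of low genes. The script was tested on simulated data, with 100 of 13341 genes changed at each size and independent noise in every library. It recovered 76% of changes of size 1 and 49% of changes of size 0.5 on the log2 scale. Of its calls there, 4.58% were false. A gene that did not pass may therefore still have changed. Far more genes were called in the real data, and noise shared within a library was not simulated, so these rates need not hold there. Members and lists were chosen with earlier results of these data known. Named genes were all members, all genes of the DP and MuvB lists, the 4 smallest p-values of every other list, the 3 protein-coding genes with the nearest pattern to E2f1 and to Mybl2 (predicted genes left out), and Hk2; a gene that this rule names is not reported here. Promoter windows came from RefSeq (GRCm38.p6); shared windows and untranslated regions from GENCODE M21 (GRCm38). Tables and figures used Python 3.11.15, numpy 2.4.6, pandas 2.3.3 and matplotlib 3.10.9. Alternatives were other pseudocounts, filters and scalings, no trend, library weights and leaving out each library.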

Additional observations from a re-analysis of the deposited data

How the results depend on the processing

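E2f1, Mybl2, Rbl1 and E2f8 kept their calls in all 14 alternative settings, and the count of members called lower ran from 4 to 6. The Rbl1 call came near the threshold, with an adjusted p of 0.0483 in limma without siHk2 library 2. The count of members called higher, 0 as reported, was 1 with library weights and 0 to 1 when single libraries were left out; in each case the member was Rb1, the single library being siControl 5. Of all genes, 1810 were called; the count was 1186 with no filter on low values, 1057 without a trend and 4040 with library weights, and 504 to 2126 when single libraries were left out (omitting siHk2 1, 2 or 3 gave 869, 714 or 504 calls, and omitting siControl 4 gave 664). Called genes of the pathway lists numbered 70, and 42 to 70 when single libraries were left out, the lowest without siHk2 library 3. Values of genes that did not pass changed sign in a few settings: E2f5 was 0.03 and Mybl1 0.02 with library weights, and with single libraries left out E2f3 ran from -0.01 to 0.18, Tfdp2 from -0.08 to 0.36, E2f5 from -0.17 to 0.05 and Mybl1 from -0.17 to 0.05. The causes were not tested. A replicate left out leaves a group of 2. No paired analysis was possible because the match of control columns to samples is unknown: sample titles number both groups 1 to 3, but the siControl columns are numbered 4 to 6 and the siHk2 columns 1 to 3. Median centring and quantile normalization changed no call of a member.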

Other observations

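Over the 6 libraries, the patterns most like that of E2f1 (smallest mean absolute difference between deviations of log2(TPM + 1) from each gene's own mean) were those of Dlgap5, a spindle protein gene (difference 0.0269), Arf1, a small GTPase gene (0.0287), and Soat1, a cholesterol esterification enzyme gene (0.0322). Dlgap5 was at 31.3 TPM in siHk2 and 47.4 TPM in siControl on average. The patterns nearest to Mybl2 were those of Dhx33 (0.0220), R3hdm2 (0.0241) and Dhrs13 (0.0241).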
